A study of Mus musculus with 78 samples.

Results

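The nuclear genes of the mitochondrial respiratory chain and ATP synthase were followed through repeated heroin and methamphetamine dosing in the mouse striatum. They were taken by gene symbol, as every name on the array that begins Nduf followed by a, b, c, s or v, Uqcr, Cox4 to Cox8 or Atp5, or that is Sdha, Sdhb, Sdhc or Sdhd. This rule took 87 of the 19057 symbols on the array. Of these, 34 belonged to complex I, 4 to complex II, 7 to complex III, 17 to complex IV (with Ndufa4, now placed there, and Cox7a2l) and 16 to complex V, while 8 were complex I assembly factors (the Ndufaf genes) and 1 was a pseudogene, Ndufs5-ps. A gene was kept when, in at least 1 of the 25 groups, its probe exceeded the median signal of every array. By this filter 82 of the 87 and 12371 genes in all remained. Of the 82, 79 passed in all 25 groups. Cox8b passed in 21 groups, Cox4i2 in 20 and Uqcrfs1 in 14. Sdha, Ndufs1, Ndufaf6, Cox7b2 and Cox8c did not pass. In a fit without the filter none of these 5 was past the threshold, and their smallest p was that of Sdha, the catalytic subunit of complex II, in heroin treatment (-0.102 ± 0.042, limma adjusted p 0.331).

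The arrays were 78 Illumina expression arrays of striatal RNA from C57BL/6J mice, and the age of the animals was not given in the sources used here. Methamphetamine (first dose 2 mg/kg, last 8), heroin (first 10, last 40) or saline was injected intraperitoneally 2 times a day for up to 12 days. Samples came from days 1, 3, 6 and 12 of treatment and from withdrawal at days that the labels number 13, 15, 18 and 24. Each day had 3 arrays per drug, which made 12 per drug and phase, and 6 arrays came from naive mice. Both drugs were compared with the same saline arrays, so their values are given side by side. Nothing beyond the replicate numbers says whether replicates were separate animals, so the errors measure the spread between these samples, part of which may be technical. The number of arrays limits the precision, and in whole tissue fewer cells of a type cannot be told apart from less RNA per cell.

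The respiratory chain moves electrons from NADH (complex I) and succinate (complex II) through ubiquinone and complex III to cytochrome c and then, at complex IV, to oxygen. The proton gradient that complexes I, III and IV build drives ATP synthase, complex V. Neurons depend on this route for most of their ATP, and a few catalytic subunits are encoded in mitochondrial DNA while the genes described here lie in the nucleus. RNA levels of these genes do not measure the amount of protein or the activity of the complexes.

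Median signals ran from 95 to 184.1 intensity units before normalization. The arrays were taken as 13 slides of 6, each with at most 1 array of any drug and phase, and the fit held a term for the slide. The slides are successive sets of 6 arrays in sample order, and the first 3 slides are called the smaller chip lot below. The sample titles and file headers name neither slide nor lot, so both words are used here as names for these sets of arrays. On the 3 methamphetamine day 1 arrays a list of 19 hippocampal genes, 15 of them measured, stood at 1.17, 0.859 and 1.43 log2 units against -0.181 to 0.263 on all other arrays. Medium spiny neuron genes, which mark the striatum (12 of 16 measured), stood at -0.866, -0.528 and -2.94 there, against -0.729 to 0.301 elsewhere. All 3 lay outside the range of the others for the hippocampal genes, and replicates 1 and 3 did so for the medium spiny neuron genes. Cortical excitatory neuron genes were also outside it on all 3, at 0.864, 0.657 and 0.998 against -0.606 to 0.640 elsewhere. Astrocyte genes were so on replicate 1, oligodendrocyte genes on replicates 1 and 3 and endothelial genes on replicate 3. Microglia, choroid plexus and blood genes stayed within the range. Without the methamphetamine day 1 arrays the count of chain genes past the threshold was 0 in each of the 29 comparisons that could still be made.

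The mean signals of the chain genes covered a wide range. The highest mean log2 signal in complex V was 15.44 for Atp5b, the catalytic beta subunit. In complex IV it was 14.80 for Cox4i1, the common form of subunit 4. In complex I it was 14.77 for Ndufa13, an accessory subunit, and in complex III 14.23 for Uqcr10, a small subunit. In complex II it was 12.04 for Sdhc, a membrane anchor of succinate dehydrogenase. The dimmest gene that passed was Uqcrfs1, the Rieske iron-sulfur protein of complex III, at 7.10. Probe signals do not rank the genes by abundance, and each gene is compared with itself across arrays.

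No respiratory chain gene passed limma's threshold (adjusted p of 0.05 over 12371 genes) in any of the 31 comparisons between groups, phases and days. In methamphetamine treatment against saline, 572 of all genes did (4.62%). In heroin treatment 205 did (1.66%). At an unadjusted p under 0.05 the chain had 4 of 82 (4.88%) for methamphetamine treatment, where all genes had 18.0%. For heroin treatment it had 9 (8 higher and 1 lower), where all genes had 13.1%. The shares of all genes for methamphetamine include the day 1 arrays, whose marker gene levels are given above. Of 15 hippocampal genes tested, 9 passed in methamphetamine treatment, and 1 did without these arrays. The part of these arrays in the shares was not tested. The median change of the 82 was -0.00020 log2 units for methamphetamine, with 41 above and 41 below 0, beside 0.0015 over all genes. For heroin it was 0.0038, with 45 above 0 and 37 below, beside 0.0013 over all genes.

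The intervals bound these changes, which are means over 4 days, closely. For 81 of the 82 genes (98.8%) the 95% interval lay within a 1.2-fold change in either direction, a bound chosen after the values were seen, in each of the 6 comparisons of drug with saline or drug with drug. The same held for 92.9% of all genes in methamphetamine treatment and 96.1% in heroin treatment. The exception was Cox8b. The bounds are on probe signal, from which no background was subtracted in this fit. For dim genes such as Uqcrfs1 (mean 7.10) and Cox4i2 (7.24) they may understate a change in RNA. The median standard error of the 82 was 0.035 log2 units against 0.043 over all genes. Their median size of change was 0.028 against 0.042 for methamphetamine and 0.024 against 0.037 for heroin. The values over all genes for methamphetamine treatment include the day 1 arrays. The plot of changes by complex shows each gene with its interval.

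**Figure D1:**
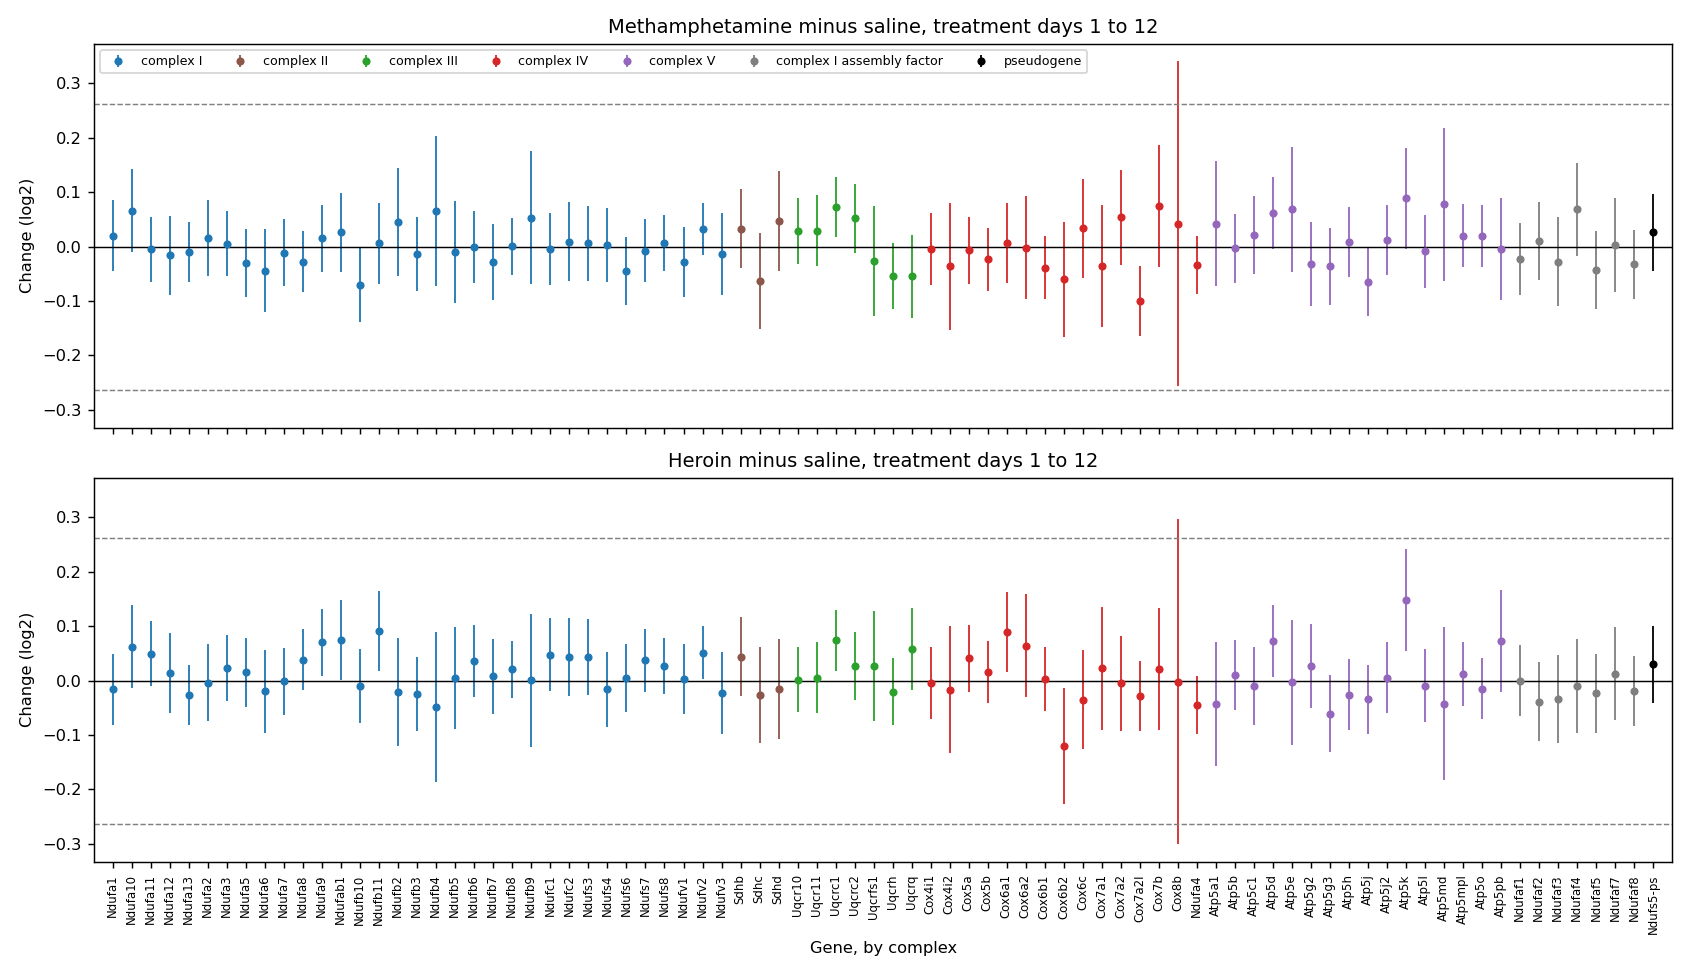
Log2 change against saline in treatment (y axis) of the 82 respiratory chain genes (x axis, by complex) for methamphetamine (top) and heroin (bottom); points are estimates, bars 95% intervals, and dashed lines a 1.2-fold change. Points lie between -0.121 and 0.148, and the widest interval is that of Cox8b.

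By complex, the medians lay close to 0 for methamphetamine treatment. They were -0.00074 for complex I, 0.033 for complex II, 0.029 for complex III, -0.0066 for complex IV, 0.016 for complex V and -0.023 for the assembly factors. The outermost genes of complex I were Ndufb10 (-0.071) and Ndufa10 (0.066), both accessory subunits. Those of complex II were Sdhc (-0.063) and Sdhd (0.048), the membrane anchors. In complex III they were Uqcrq (-0.055) and Uqcrc1 (0.073), in complex IV Cox7a2l (-0.099) and Cox7b (0.075), and in complex V Atp5j (-0.064) and Atp5k (0.089). For heroin treatment the medians were 0.014 for complex I, with 22 of 33 genes above 0, and 0.027 for complex III, with 6 of 7 above 0. They were -0.016 for complex II, -0.0021 for complex IV, -0.0063 for complex V and -0.019 for the assembly factors, 1 of 7 of which was above 0. The largest heroin values per complex were 0.091 for Ndufb11, 0.044 for Sdhb, 0.074 for Uqcrc1, -0.121 for Cox6b2 and 0.148 for Atp5k.

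The smallest adjusted p of methamphetamine treatment was that of Cox7a2l, which helps join complexes III and IV into supercomplexes and is shortened in C57BL/6 mice. Its lowest, median and highest log2 levels were 12.29, 12.47 and 12.51 on the 12 methamphetamine treatment arrays and 12.41, 12.53 and 12.63 on the 12 saline treatment arrays. They were 12.28, 12.50 and 12.64 on the heroin treatment arrays and 12.26, 12.55 and 12.65 on the 6 naive arrays. The methamphetamine arrays reached less high than any other group, but all groups overlapped. The change was -0.099 ± 0.032 (SE, 12 arrays against 12), 0.933-fold with a 95% interval of 0.893 to 0.976, with limma's adjusted p at 0.0597. It was lower on 8 and higher on 3 of the 11 slides that held both. The values by day were -0.133, -0.121, -0.086 and -0.058 in treatment and 0.049, 0.096, -0.0076 and 0.045 in withdrawal. The difference between the phases was -0.145 ± 0.045 with an adjusted p of 0.133. Within the smaller chip lot (18 arrays) the change was -0.110 and within the larger (60 arrays) -0.094. Without the day 1 arrays it was -0.087 with an adjusted p of 0.555. Over 15 alternative settings its adjusted p ran from 0.00596 to 0.711 and its change from -0.115 to -0.0048, the last on the deposited log2 values. The lowest p came from a fit with array weights, whose estimation stopped before it converged.

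Uqcrc1, a core protein of complex III, had nearly the same change from the shared saline arrays under both drugs. Its lowest, median and highest levels in treatment were 12.31, 12.48 and 12.61 for methamphetamine, 12.31, 12.48 and 12.58 for heroin and 12.27, 12.41 and 12.53 for saline. On the naive arrays they were 12.42, 12.53 and 12.72. The groups overlapped over most of their range, and the saline treatment arrays were the lowest of them. The change was 0.073 ± 0.028 for methamphetamine (limma adjusted p 0.128, higher on 9 of 11 slides) and 0.074 ± 0.028 for heroin (0.181, higher on 10 of 11). By day, methamphetamine gave -0.122, 0.023, 0.200 and 0.189 on days 1, 3, 6 and 12, and heroin 0.013, -0.073, 0.164 and 0.191. Within the smaller and larger lot the values were 0.034 and 0.064 for methamphetamine and 0.082 and 0.062 for heroin. Without day 1 the methamphetamine change was 0.139 with an adjusted p of 0.0840. On the deposited log2 values the changes were 0.0083 and 0.0077.

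Atp5k, subunit e of ATP synthase, which helps the enzyme pair into dimers, had the smallest adjusted p of heroin treatment. Its levels were 7.71, 8.05 and 8.61 (lowest, median, highest) on heroin treatment arrays, 7.44, 7.88 and 8.28 on saline treatment arrays and 7.66, 8.02 and 8.45 on methamphetamine treatment arrays. The heroin arrays lay higher at each of these 3 points and overlapped with saline over most of the range. Levels on single arrays hold no slide term. The slide took 77.1% of the variance of this probe, with slide means from 7.53 on slide 3 to 8.34 on slide 6. The heroin change was 0.148 ± 0.046, 1.11-fold with a 95% interval of 1.04 to 1.18, with limma's adjusted p at 0.0914 and higher values on 9 of 11 slides. The methamphetamine change was 0.089 ± 0.046 with an adjusted p of 0.307. On day 12 the 3 heroin arrays stood at 7.71, 8.61 and 8.27 and the saline arrays at 7.89, 7.76 and 7.92, a change of 0.385 with an adjusted p of 0.214. A second Atp5k probe gave -0.017 ± 0.043 for heroin, the widest disagreement between probes of any chain gene in that comparison. Without day 1 the heroin change was 0.178 with an adjusted p of 0.182. Over 15 settings its adjusted p ran from 0.00224, with the same array weights, to 0.908 and its change from 0.039, on the deposited log2 values, to 0.182.

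Within complex IV, Cox6b2 and Cox6a1 had the largest heroin values. Cox6a1, the widely expressed form of subunit 6a, gave 0.090 ± 0.036 (limma adjusted p 0.236), and Cox6b2, the testis form of subunit 6b, by -0.121 ± 0.053 (0.292), neither past the threshold. The partner isoforms gave 0.064 for Cox6a2 and 0.0027 for Cox6b1. The other isoform pairs lay nearer to 0 under heroin: -0.0047 for Cox4i1 and -0.017 for Cox4i2, 0.022 for Cox7a1 and -0.0052 for Cox7a2, and 0.027 for Atp5g2 and -0.061 for Atp5g3, which encode the same rotor subunit. Under methamphetamine the same isoforms lay between -0.060 (Cox6b2) and 0.054 (Cox7a2). Cox7b gave 0.075 under methamphetamine and 0.021 under heroin.

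**Figure D2:**
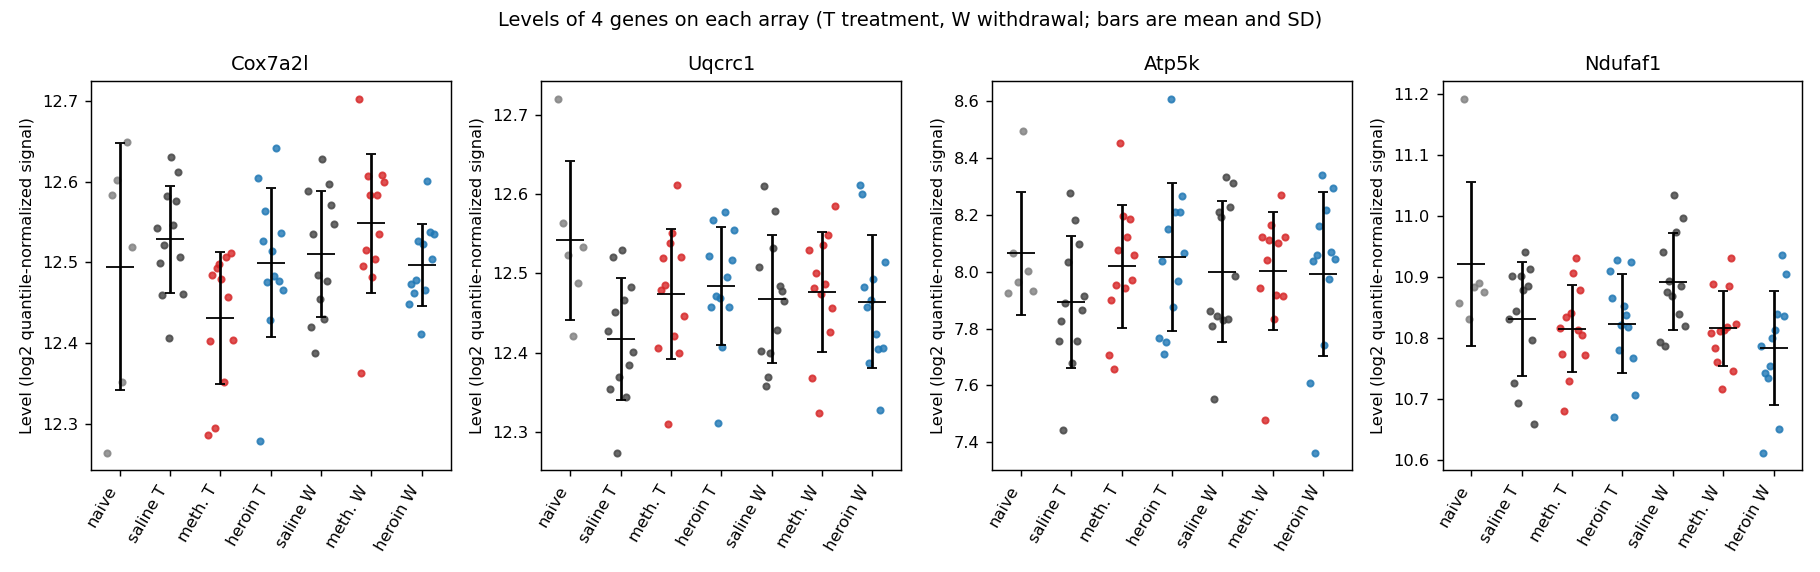
Log2 quantile-normalized level (y axis) of Cox7a2l, Uqcrc1, Atp5k and Ndufaf1 on each array, by group (x axis; T treatment, W withdrawal), with the group mean and SD as bars. Groups overlap in every panel, and the Cox7a2l points of methamphetamine treatment end at 12.51 where saline treatment reaches 12.63.

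The promoters of the chain genes were searched for a palindrome of 10 bases that nuclear respiratory factor 1, a regulator of many chain genes, binds. RefSeq promoters (GRCm38.p6, 250 bases before to 50 after the start) were matched for 72 of the 87 genes. The palindrome, printed in capitals in the lines below and the same on both strands, was in 7 of the 72 (9.72%) and in 290 of 27025 promoters of all genes (1.07%). The 7 were Atp5g2, Atp5k, Cox6a1, Ndufa11, Ndufaf4, Ndufaf5 and Uqcrc1. The lines below hold those of the 7 with the largest heroin changes, none of them past the threshold. In Uqcrc1 the palindrome lies after the start. The regions are chr9:108936398-108936697 on the plus strand for Uqcrc1, chr5:108434350-108434649 on the minus strand for Atp5k and chr5:115348909-115349208 on the minus strand for Cox6a1.
Uqcrc1: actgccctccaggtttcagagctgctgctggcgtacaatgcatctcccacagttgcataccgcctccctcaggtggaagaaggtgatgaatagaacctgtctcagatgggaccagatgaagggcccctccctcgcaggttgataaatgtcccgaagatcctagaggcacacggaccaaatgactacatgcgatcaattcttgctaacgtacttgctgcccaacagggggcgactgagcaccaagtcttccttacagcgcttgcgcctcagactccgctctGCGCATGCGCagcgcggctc
Atp5k: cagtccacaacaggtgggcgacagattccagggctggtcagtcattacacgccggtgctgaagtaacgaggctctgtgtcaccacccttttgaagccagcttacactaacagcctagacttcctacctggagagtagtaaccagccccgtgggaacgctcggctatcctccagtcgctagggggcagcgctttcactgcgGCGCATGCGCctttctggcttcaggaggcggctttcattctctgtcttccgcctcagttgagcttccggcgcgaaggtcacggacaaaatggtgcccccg
Cox6a1: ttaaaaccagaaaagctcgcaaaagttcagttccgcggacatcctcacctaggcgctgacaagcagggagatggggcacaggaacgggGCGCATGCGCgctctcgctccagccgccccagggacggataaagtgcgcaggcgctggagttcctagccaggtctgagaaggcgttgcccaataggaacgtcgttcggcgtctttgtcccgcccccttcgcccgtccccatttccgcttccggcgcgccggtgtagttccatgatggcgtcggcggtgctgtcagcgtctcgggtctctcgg
The heroin treatment changes of the 7 were 0.148 for Atp5k, 0.090 for Cox6a1, 0.074 for Uqcrc1, 0.049 for Ndufa11, 0.027 for Atp5g2, -0.010 for Ndufaf4 and -0.023 for Ndufaf5. Their median was 0.049 for heroin and 0.0064 for methamphetamine, and that of the other 63 tested genes with a matched promoter was 0.0030 and -0.0031. The second Atp5k probe, given above, did not show the rise of the first. The motif was looked at after the changes were known, so these are descriptions with no test. The YY1 motif AAGATGGCG was in 8 of the 72 promoters (11.1%) and 443 of all (1.64%), and the ETS motif CCGGAAGT in 4 (5.56%) and 1164 of all (4.31%), each searched on both strands. A match of letters is not a site of binding.

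The drugs were also compared with each other. In treatment 431 of all genes passed (3.48%) and no chain gene did, with 5 (6.10%) at an unadjusted p under 0.05, all lower under methamphetamine, beside 18.2% of all genes. The median of the 82 was -0.014 beside -0.0018 over all genes. The values over all genes here also include the methamphetamine day 1 arrays. Uqcrq, the ubiquinone-binding small subunit of complex III, had lowest, median and highest levels of 8.95, 9.04 and 9.28 with methamphetamine and 9.03, 9.17 and 9.26 with heroin. The ranges overlapped, while the median was lower with methamphetamine. The difference was -0.113 ± 0.038 with limma's adjusted p at 0.0802, lower on 9 of 11 slides, and -0.110 and -0.122 within the smaller and larger lots. Ndufa8 (-0.066, adjusted p 0.184) and Ndufb11 (-0.085, 0.198), accessory subunits of complex I, followed. Without day 1 the Uqcrq difference was -0.106 with an adjusted p of 0.719, and on the deposited log2 values it was -0.014.

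In withdrawal few genes of any kind passed. Methamphetamine against saline had 3 of all genes (0.0243%), heroin against saline 6 (0.0485%) and methamphetamine against heroin 1 (0.00808%), with no chain gene in any of them by limma. At an unadjusted p under 0.05 the chain had 1 (1.22%) for methamphetamine beside 5.57% of all genes. It had 5 (6.10%, 3 higher and 2 lower) for heroin beside 10.9%, and 1 between the drugs beside 6.73%. The smallest adjusted p was that of Ndufaf1, an assembly factor of complex I, with levels of 10.61, 10.79 and 10.94 (lowest, median, highest) in heroin withdrawal, 10.72, 10.81 and 10.93 in methamphetamine withdrawal and 10.79, 10.88 and 11.03 in saline withdrawal. The medians of both drugs lay below saline and the ranges overlapped. The changes were -0.107 ± 0.033 for heroin (adjusted p 0.198, lower on 10 of 11 slides) and -0.073 ± 0.033 for methamphetamine (0.868, lower on 9 of 11). Within the smaller and larger lots they were -0.126 and -0.102 for heroin and -0.013 and -0.098 for methamphetamine. On the deposited log2 values the heroin change was -0.011. Uqcrc2, the other core protein of complex III, gave 0.080 ± 0.031 for heroin (adjusted p 0.341). Cox4i2, the oxygen-sensitive form of subunit 4, gave 0.134 ± 0.058 (0.373). Between the drugs the 3 smallest p-values were those of Atp5g2 (-0.095, adjusted p 0.687), Sdhc (0.085) and Ndufaf2 (0.063).

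Treatment and withdrawal effects were set against each other. For methamphetamine 44 of all genes differed between the phases (0.356%) and for heroin 7 (0.0566%). No chain gene did, with 2 and 3 at an unadjusted p under 0.05 beside 11.9% and 10.1% of all genes. The drug effect differed between treatment days for 136 genes under methamphetamine (1.10%) and for 0 under heroin. The counts of all genes for methamphetamine treatment again include the day 1 arrays. In withdrawal it differed for 0 under either drug. The chain had 3, 1, 3 and 6 genes at an unadjusted p under 0.05 in these 4 tests of methamphetamine treatment, heroin treatment, methamphetamine withdrawal and heroin withdrawal, beside 10.0%, 4.11%, 4.74% and 7.13% of all genes. Among the saline arrays 1 of all genes differed between the days (0.00808%), with 2 chain genes at an unadjusted p under 0.05 beside 9.49% of all genes.

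On single days the chain's median changes were small in both directions. For methamphetamine they were -0.050, -0.0077, 0.037 and -0.0037 on days 1, 3, 6 and 12 and -0.034, 0.023, -0.0075 and 0.022 on days 13, 15, 18 and 24. For heroin they were 0.026, -0.040, 0.010 and 0.032, then -0.034, 0.033, 0.0024 and 0.048. The sign changed from day to day with neither drug holding one direction, as the plot of changes by day shows. Most genes called on a single day fell on methamphetamine day 1, with 894 of all genes (7.23%), and heroin day 15, with 149 (1.20%). Heroin day 12 had 19 (0.154%), methamphetamine day 6 had 7 (0.0566%), day 12 had 3 (0.0243%), day 18 had 2 (0.0162%) and day 13 had 1 (0.00808%), and heroin days 3 and 6 had 1 each. The other days had none.

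At an unadjusted p under 0.05 the chain had 2, 2, 6 and 4 of its 82 genes on methamphetamine days 1, 3, 6 and 12, beside 19.6%, 3.70%, 4.70% and 5.31% of all genes. On methamphetamine days 13, 15, 18 and 24 it had 2, 5, 2 and 1, beside 3.87%, 7.99%, 3.74% and 3.02%. On heroin days 1, 3, 6 and 12 it had 1, 4, 2 and 6, beside 4.74%, 3.82%, 5.86% and 8.95%. On heroin days 13, 15, 18 and 24 it had 8, 4, 2 and 3, beside 7.86%, 12.5%, 4.05% and 2.90%. The chain's counts thus lay on both sides of the share over all genes.

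**Figure D3:**
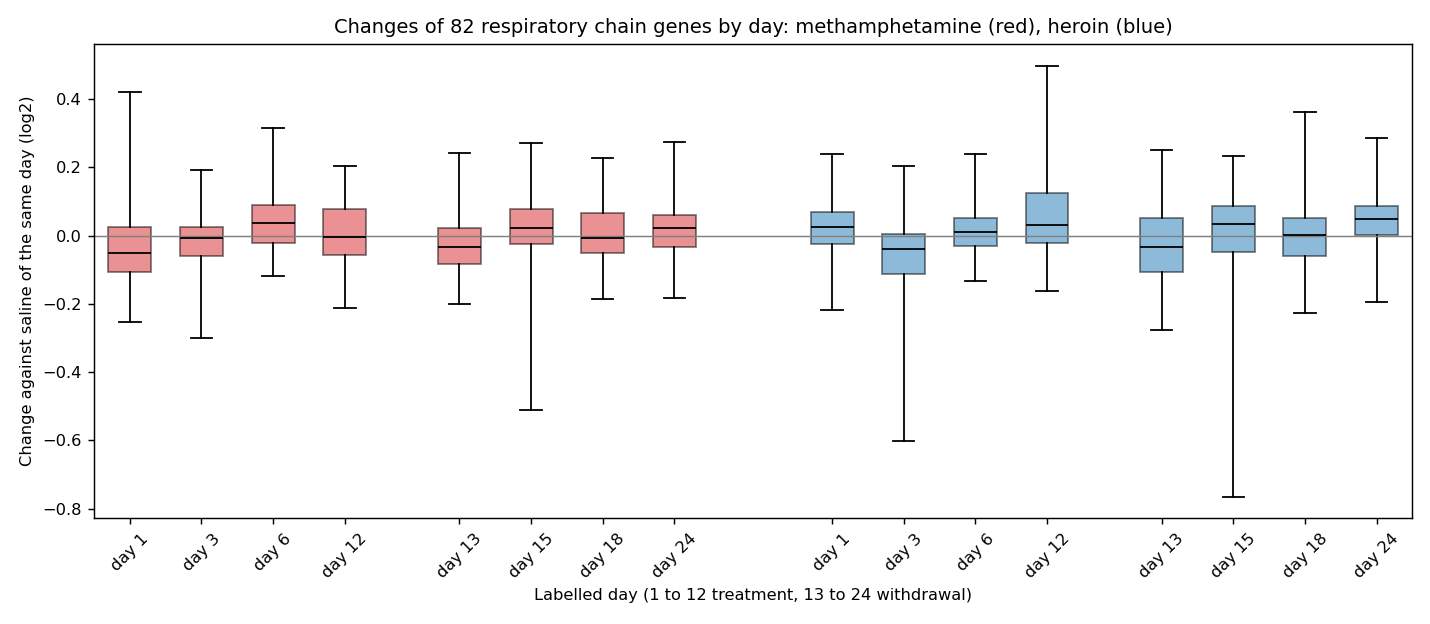
Log2 change of the 82 respiratory chain genes against saline of the same day (y axis), by labelled day (x axis), methamphetamine in red and heroin in blue; boxes span the quartiles, the line is the median and whiskers reach the lowest and highest gene. Medians lie between -0.050 and 0.048.

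On methamphetamine day 1, the day with the most called genes, none of the 82 chain genes had a change over 0.5 log2 units in size. Of all genes 661 did (5.34%), and the median size of change was 0.073 against 0.114. The marker gene levels of these arrays are given above, and their part in the values over all genes was not tested. The mean of the chain, as a deviation from each gene's mean over all arrays, was -0.110, -0.0021 and -0.059 on these 3 arrays, inside the range of -0.183 to 0.136 on the others. The smallest p was that of Ndufv3, an accessory subunit of the NADH-oxidizing module of complex I. Its levels were 12.84, 12.94 and 12.98 with methamphetamine and 13.29, 13.03 and 13.17 with saline, with no overlap. These levels hold no slide term, and the slide took 55.0% of the variance of this gene. The change was -0.252 ± 0.100 with limma's adjusted p at 0.124. On heroin day 15 Uqcrc2 stood at 12.87, 12.99 and 13.10 against 12.97, 12.79 and 12.92 with saline, which overlap, a change of 0.233 ± 0.076 with an adjusted p of 0.121.

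Saline-injected mice were also compared with naive mice. In treatment 5 of all genes passed (0.0404%) and in withdrawal 21 (0.170%), and no chain gene did by limma. The chain had 8 genes at an unadjusted p under 0.05 in treatment (9.76%, beside 7.30% of all genes) and 6 in withdrawal (7.32%, beside 8.00%), and each of them was lower in saline. The medians were -0.030 (26 above and 56 below 0) and -0.019 (24 above and 58 below), beside -0.0025 and -0.0031 over all genes. Ndufaf8, an assembly factor of complex I, had lowest, median and highest levels of 9.53, 9.58 and 9.70 on the naive arrays, 9.41, 9.49 and 9.70 on saline treatment arrays and 9.35, 9.47 and 9.60 on saline withdrawal arrays. The naive median was the highest of the 3 and the ranges overlapped. Its change was -0.121 ± 0.040 in treatment and -0.142 ± 0.040 in withdrawal, with an adjusted p of 0.258 for the latter. With array position as a term, the treatment value turned to 0.127. In sample order every naive array came last on its slide and every saline treatment array among the first 3. The groups compared in treatment thus also differ in array position, and the part of position in these values was not tested. Uqcrc1 gave -0.127 ± 0.035 in treatment with an adjusted p of 0.344, and Cox6a1 -0.127 ± 0.046. The naive arrays were the same in both phases, so these are not independent comparisons.

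The slide took more of the chain's spread than the groups did. The 13 slides took a median of 54.0% of the variance between arrays over the 82 genes and 40.1% over all genes, where their degrees of freedom alone would give 15.6%. The 25 groups took 27.6% and 33.1%, where degrees of freedom would give 31.2%. For 12 of the 82 (14.6%) the slide means spanned over 1 log2 unit, a bound chosen after the values were seen, against 476 of 12371 genes (3.85%). The median span was alike, 0.314 and 0.311.

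These 12 genes were Atp5a1, Atp5e and Atp5md of ATP synthase, Ndufb2, Ndufb4, Ndufb5, Ndufb9 and Ndufb10 of complex I, Cox6c and Cox7b of complex IV, Sdhd of complex II, and the assembly factor Ndufaf2. Slide means of Atp5md, a small subunit, ran from 7.40 to 10.25, and those of Atp5a1, the alpha subunit beside Atp5b in the catalytic head, from 9.88 on slide 3 to 12.63 on slide 11. The slide took 96.1% of the variance of Atp5a1. The spans of the others ran from 1.11 for Cox6c to 2.42 for Ndufb4. All 12 were lowest on slide 3, and their mean ran from -1.22 there to 0.745 on slide 11, while the mean of the other 70 stayed between -0.035 and 0.051. A second Atp5a1 probe, read on the same arrays, ran from 8.66 to 8.98 over slides. For Ndufa5 and Ndufaf5 the reverse held, with the probe used spanning 0.243 and 0.203 and another probe 2.75 and 2.47. Probes of 1 gene thus differed in span, and its cause was not tested. With slide in the fit, the changes of the 12 against saline lay within the range of the other 70 genes for both drugs in treatment and in withdrawal.

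**Figure D4:**
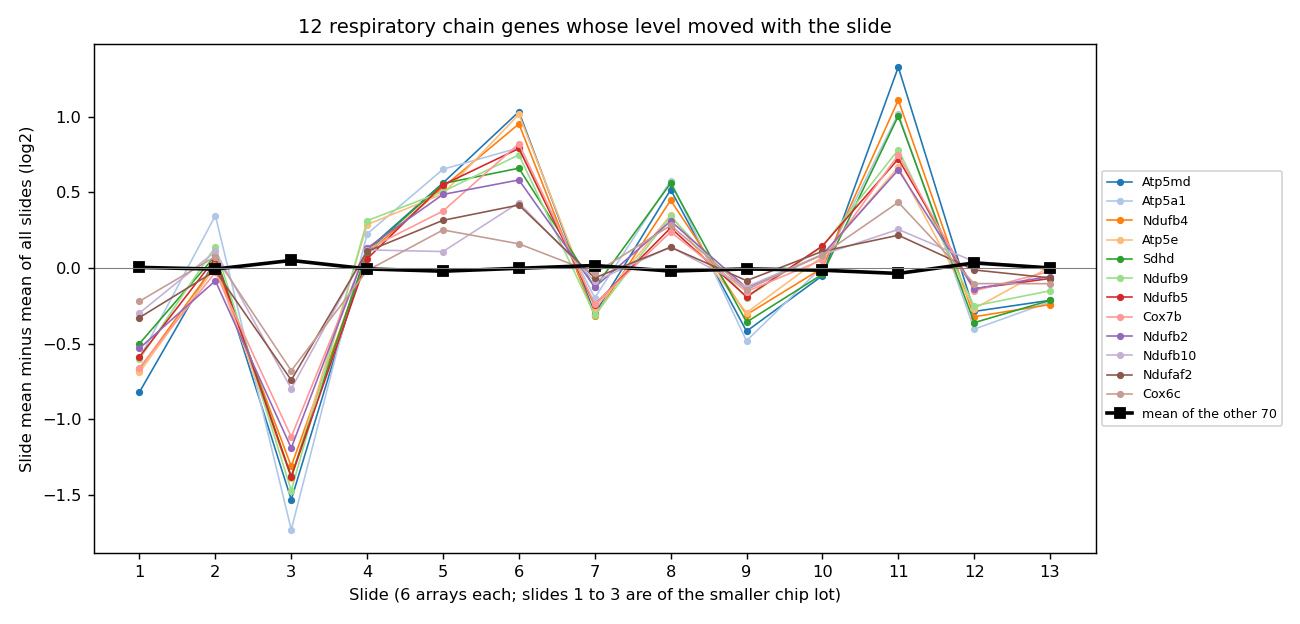
Slide mean minus the mean of all slides (y axis, log2) for the 12 respiratory chain genes whose slide means spanned over 1 log2 unit and for the mean of the other 70 (black squares), by slide (x axis, 6 arrays each). All 12 are lowest on slide 3 and their mean there is -1.22, while the black line stays between -0.035 and 0.051.

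Cox8b, the heart and muscle form of subunit 8, varied most between replicates. Its residual SD was 0.386 log2 units against at most 0.178 for any other chain gene. Its median level was 7.13 on naive, 7.15 on saline treatment and 7.20 on saline withdrawal arrays. Single arrays stood far above this, at 8.67 on saline day 3 replicate 2, 8.48 on methamphetamine day 1 replicate 3, 8.23 on naive replicate 4, 8.17 on heroin day 12 replicate 2 and 8.03 on methamphetamine day 13 replicate 3. The high arrays came from every drug and from the naive group.

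The same arrays were high in genes of the choroid plexus, the ventricular epithelium that makes cerebrospinal fluid and borders the striatum. The mean deviation of the 8 choroid plexus genes measured of 10 listed, among them Ttr, Folr1, Kl and Aqp1, was 1.92, 1.71, 1.32, 1.27 and 1.30 on those 5 arrays, the 1st, 2nd, 4th, 6th and 5th highest of 78. Over the 78 arrays the Cox8b level followed it with Pearson's r of 0.887 and Spearman's rho of 0.654. Each had a permutation p of 1e-05, the smallest that 100000 permutations can give, and 0.00082 after Benjamini-Hochberg adjustment over the 82 chain genes. The permutations moved the choroid plexus level over all 78 arrays without regard to slide or group. The relation was computed after the values were seen, so its p-values describe the data that led to it. Without the 2 arrays farthest from the median choroid level r was 0.852, with slide and group removed 0.915, within the smaller lot 0.928 (18 arrays) and within the larger 0.880 (60 arrays).

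The second gene past the threshold by r was Cox7a1, the muscle form of subunit 7a. Its r was 0.364 (adjusted permutation p 0.0496) and its rho 0.390 (0.0172), with r at 0.338 without the 2 farthest arrays, 0.30 and 0.412 within the lots and 0.520 with slide and group removed. By rho alone Atp5c1 (-0.381, adjusted permutation p 0.0172) and Atp5d (0.354, 0.0353) also passed, with r of -0.270 and 0.277 (both 0.283). With slide and group removed their r was -0.174 and 0.231. Genes that did not pass then reached values like that of Cox7a1, such as Ndufv3 (0.544, from 0.143) and Ndufab1 (0.422, from 0.0046). The permutations ignored slide and group, so the p-values allow for neither.

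On day 15 the 3 heroin arrays had Cox8b levels of 7.04, 7.19 and 7.20 and the 3 saline arrays of 7.68, 7.91 and 7.85, with no overlap. The change was -0.764 ± 0.363 with limma's adjusted p at 0.366. The choroid plexus level of those heroin arrays was -0.249, -0.212 and -0.192, and that of the saline arrays 0.746, 0.911 and 0.992. On day 3 the 3 saline arrays stood at 6.98, 8.67 and 6.98, and the heroin change of -0.601 rested on the array at 8.67. The part of choroid plexus RNA in these changes was not tested.

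**Figure D5:**
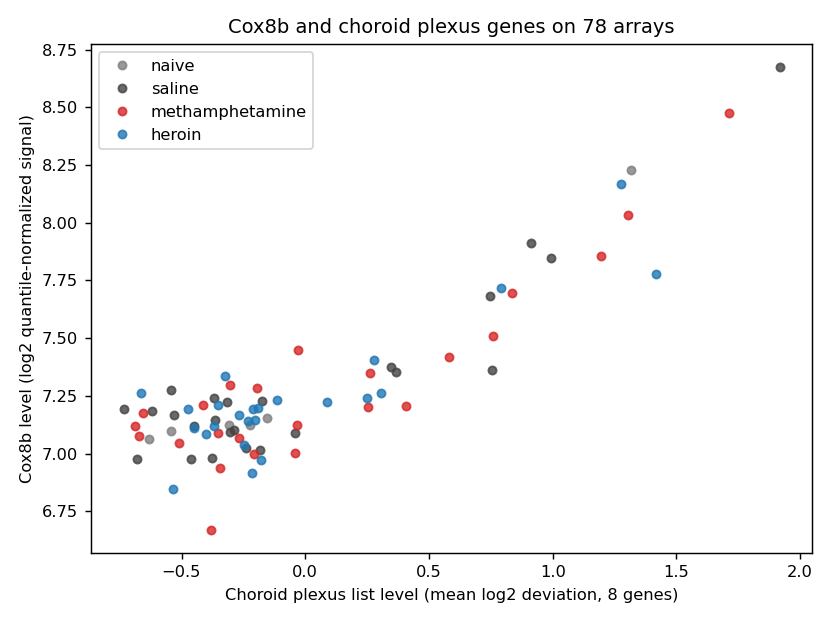
Cox8b level (y axis, log2 quantile-normalized signal) against the mean log2 deviation of 8 choroid plexus genes (x axis) on the 78 arrays, coloured by drug. Arrays with the highest choroid plexus level have the highest Cox8b, up to 8.67, in each colour, with r of 0.887.

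Other genes of the same metabolism were read from lists without the 82. Of the 8 mitochondrially encoded genes measured none passed, with medians of 0.0058 for methamphetamine and -0.049 for heroin treatment. Of 33 assembly and other mitochondrial factors none passed, with medians of 0.029 and 0.010. Of 19 chain components outside the symbol rule, 2 rose in methamphetamine treatment, where 4.62% of all genes were called. Coq10b, which binds ubiquinone, rose by 0.223 ± 0.047 (limma adjusted p 0.0028). Dhodh, the pyrimidine synthesis enzyme that passes electrons to ubiquinone, rose by 0.138 ± 0.035 (0.0150). Under heroin treatment, where 1.66% of all genes were called, Dhodh rose by 0.145 ± 0.035 (0.0193) and Coq10b gave 0.129 (0.172). In heroin withdrawal Coq10b rose by 0.230 (0.0330). Without day 1 Coq10b in methamphetamine treatment was 0.273 with an adjusted p of 0.0217. The Dhodh values were then 0.122 (0.384) for methamphetamine and 0.148 (0.118) for heroin.

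Fuel supply and its regulators gave single genes. The shares of all genes called in methamphetamine treatment, in heroin withdrawal and between the drugs in treatment are given above, and no list was tested as a set. Among 22 regulators of mitochondrial biogenesis Pprc1, a coactivator related to PGC-1, rose by 0.167 ± 0.037 in methamphetamine treatment (limma adjusted p 0.0047). Among 22 genes of pyruvate entry and the citric acid cycle Dlat, a subunit of pyruvate dehydrogenase, rose by 0.145 (0.0225) and Pdp1, the phosphatase that activates that complex, fell by 0.286 (0.0093). Among 16 glycolytic genes Pfkl, a phosphofructokinase, rose by 0.166 (0.0089) and Aldoc, the astrocytic aldolase, by 0.158 (0.0104). Without the day 1 arrays none of these 5 passed in methamphetamine treatment, with adjusted p-values of 0.187, 0.795, 0.276, 0.791 and 0.304. The marker gene levels of the day 1 arrays are given above. Whether these levels or the smaller number of arrays bear on the calls was not tested. Pdp1 gave -0.211 under heroin treatment (0.108) and fell by 0.316 without day 1 (0.0325). Of 16 mitochondrial carriers Slc25a25, which moves ATP and phosphate, rose by 0.224 ± 0.046 in heroin withdrawal (0.0330). Of 16 antioxidant genes Gpx1 was lower under methamphetamine than heroin in treatment (-0.15 ± 0.043, 0.0355), and -0.033 without day 1.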

How the data were processed

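The deposited non-normalized table holds 1 intensity value per probe and array, per the file headers, for 45281 probes on 78 arrays. The second deposited table holds the authors' log2 values. The software, background correction and normalization behind both are not given in the sources used here. By the platform annotation 34885 probes had 1 symbol, 18 had several and 10378 had none. Withdrawal days are named as in the labels (13, 15, 18 and 24), while the file headers number them 1, 3, 6 and 12. No column was without a sample (0 unused).

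Here the intensities were quantile-normalized and taken to log2. A probe was kept if it exceeded the median of every array in 1 group or more (23810 probes), and each symbol kept its brightest probe by mean (12371 genes). The chain had 135 probes, 117 past the filter. One model (limma 3.58.1, R 4.3.3) held the 25 group means and 13 slides. Phase effects are means over 4 days. The two-sided p-values were adjusted over all genes (Benjamini-Hochberg, threshold 0.05). The number of arrays limits precision. Correlations used 100000 permutations over all arrays, with slide and group ignored (python 3.11.15), and the fit was tested on simulated data.

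The members and gene lists were chosen with earlier results of these data known. Genes were named by a rule: the 3 smallest p where none passed, per complex the brightest and the most changed, isoform pairs, genes that failed the filter, and list genes past the threshold. The genes with wide slide spans, those with the palindrome and the choroid plexus relation were named after values were seen. Replicate numbers did not pair the arrays. Alternatives were normexp (offset 50), median centring, the deposited log2 values, no and a stricter filter (60th percentile), each probe tested, slide left out or made a random block, array position, the larger lot, a replicate block, the phase's groups alone, robust trended variances, array weights, leaving out each array, and leaving out methamphetamine day 1. In that last setting the heroin treatment changes are also means without day 1, so they rest on fewer arrays.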

Additional observations from a re-analysis of the deposited data

Results flagged for a closer look

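Among the 6 naive arrays, 11 of the 82 genes had 1 array far from the other 5 by Dixon's test at the 95% level, which chance gives in about 1 in 20 groups. That was 13.4% of the 82, beside 5.50% of all 12371 genes. The test used levels with no slide term, and each naive array lay on a slide of its own. Naive replicate 6, on slide 11, was the array apart for 6 of the 11 genes and for 186 of the 681 such genes in all. It was high for Atp5k at 8.49 (others 7.93 to 8.07) and Ndufb4 at 10.01 (8.39 to 8.92). It was low for Atp5d at 12.39 (12.55 to 12.64), Ndufa7 at 12.65 (12.82 to 12.89), Ndufa9 at 12.32 (12.46 to 12.51) and Ndufb3 at 11.87 (12.00 to 12.06). For Atp5d, Ndufa7, Ndufb3 and Ndufb4 it lay within the range of the other 5 arrays of slide 11 (12.39 to 12.56, 12.47 to 12.67, 11.75 to 11.93 and 9.43 to 10.07). For Atp5k it lay above theirs (8.19 to 8.31) and for Ndufa9 below (12.35 to 12.47). Naive replicate 4 was high for Cox8b at 8.23 (7.06 to 7.15), with a choroid plexus level of 1.32, and for Ndufv2 at 13.33 (13.15 to 13.22), and low for Atp5pb at 11.41 (11.66 to 11.80). Replicate 2 was high for Cox4i2 at 7.43 (7.02 to 7.15), and replicate 5 for Ndufaf1 at 11.19 (10.83 to 10.89). The other groups hold 3 arrays each and were not tested in this way.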

How the results depend on the processing

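No chain gene passed in any of the 31 comparisons with all probes, array position as a term, the larger lot alone, median centring, no or a stricter filter, no slide term, normexp or robust trended variances. Without methamphetamine day 1 none passed in the 29 comparisons that remain. With the replicate block in place of the slide term the count was 0 in each of the 31. Same-numbered arrays did not deviate together (median r of -0.014 against 0.0028 for different numbers, with 17 of 72 arrays closest to their own number). Array weights, whose estimation stopped before it converged, gave 2 genes in methamphetamine treatment (Cox7a2l and Uqcrh), 1 in heroin treatment (Atp5k), 2 between the drugs in treatment (Uqcrq and Ndufa8), 1 between the phases for methamphetamine (Cox7a2l), 1 on methamphetamine day 1 (Ndufv3) and 1 on heroin day 15 (Uqcrc2). With slide as a random block 1 passed in methamphetamine treatment (Cox7a2l). With the phase's groups alone (26 comparisons) 1 passed in heroin treatment (Atp5k) and 1 between the drugs (Uqcrq). On the deposited log2 values 4 differed between saline days (Atp5a1, Atp5md, Ndufb5 and Sdhd), all with wide slide spans. Under median centring the heroin day 24 median was 0.123 in place of 0.048. The cause of these shifts was not tested.

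Leaving out each array in turn gave 0 to 1 genes in methamphetamine treatment, heroin treatment and between the drugs in treatment, and 0 elsewhere. Cox7a2l passed without methamphetamine day 1 replicate 2, saline day 18 replicate 3, naive replicate 5 or naive replicate 6 (adjusted p 0.0442, 0.0431, 0.0492 and 0.0417). Atp5k passed without naive replicate 6 (0.0450). Uqcrq passed without saline day 15 replicate 2 or 3 or methamphetamine day 1 replicate 3 (0.0444, 0.0481 and 0.0452).

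The sign turned for 12 single-gene values. With array position as a term these were Ndufaf8 in saline treatment against naive (0.127) and Uqcrq in saline withdrawal against naive (0.112, and 0.032 with the replicate block). Without the slide term, and with the replicate block, they were Atp5mpl on methamphetamine day 1 (0.0056) and day 13 (0.015), Ndufb8 on methamphetamine day 13 (0.0076) and Uqcr11 on methamphetamine day 12 (-0.028). With the phase's groups alone it was Ndufab1 on heroin day 1 (-0.031).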
